A study of Mus musculus with 8 samples.

Results

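The 29 genes described here encode enzymes and regulators of cholesterol and fatty acid synthesis. They were chosen by symbol for their known roles, with earlier results of these data in view, and all 29 were found among the 27179 Entrez genes of the count table. RNA was sequenced from 4 related mouse mammary tumour cell lines (67NR, 66cl4, 4T1 and 4T1.2), each in 2 biological replicates, which gives 8 libraries. The lines carried no labelled treatment, and the study's methods keep all of them in αMEM with fetal calf serum. The metastatic potential of 4T1.2 and 4T1 is high, and that of 66cl4 and 67NR is lower. The sample labels write one line as 66c14, and the spelling 66cl4 of the series' design text is used here. The lines descend from a single BALB/c mammary tumour, and 4T1.2 is a clone of 4T1, so each side of the comparison holds 2 lines and not 2 independent tumours. The labels do not say whether the replicates were separate cultures, and p-values measure only the spread between these libraries.

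Cells build cholesterol from acetyl-CoA through the mevalonate pathway, squalene and a series of sterol intermediates, and they build fatty acids from the same acetyl-CoA. SREBP-2 is the transcription factor best known for switching on the cholesterol genes, and SREBP-1 for the fatty acid genes. Both are held in the endoplasmic reticulum by SCAP and INSIG proteins when sterols are plentiful, and both are cut and moved to the nucleus when sterols are scarce. Cultured tumour cells meet their lipid demand from this synthesis and from lipoproteins in serum. Sterol levels, lipid levels and protein levels were not measured here.

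Library totals ran from 37159840 to 66269681 counts, and every one of the 29 genes was among the 13926 genes tested. Levels are CPM, counts scaled to the size of the library after TMM normalisation, and levels of different genes are set side by side only per kilobase of gene model (RPKM). All 6 epithelial markers had more than 3 counts in each 4T1.2 and 4T1 library, against 2 or 3 of 6 in 66cl4 and 67NR, where Epcam had at most 1 count. All 5 mesenchymal markers passed that level in 66cl4 and 67NR, and 4 of 5 did in 4T1.2 and 4T1, where Cdh2 had at most 1 count. Their sum was nonetheless higher in 4T1.2 and 4T1 (2727 to 3878 RPKM) than in 66cl4 and 67NR (1265 to 2247 RPKM), with most Vim in 4T1.2 and 4T1 and most Zeb1, Cdh2, Fn1 and Twist1 in the others. Markers of adipocytes, cells known for fat synthesis, summed to between 0.151 and 0.620 RPKM in every library. Leucocyte markers summed to between 13.3 and 27.8 RPKM and Ptprc, which defines these cells, had at most 2 counts, and Cd3e had 0. Within this list Lyz2 had 791 to 1387 counts in 66cl4 and 67NR and at most 4 in the other lines, and S100a8 had 205 to 533 counts in 4T1.2 and 4T1 and at most 11 in the others. The part of these marker differences in the results below was not tested.

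Reads of these libraries also carried a gene length trend. In the comparison of 4T1.2 and 4T1 with the other lines, the median log2 difference of all genes was 0.18 for gene models up to 2000 bases and -0.21 for those over 4000 bases. Between the replicates of 4T1 the same medians were 0.21 and -0.18 (replicate 2 minus replicate 1).

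Promoters of 23 of the 29 genes were found in the RefSeq table used here (GRCm38.p6, 250 bases before to 50 bases after each annotated start). On either strand, the NF-Y box CCAAT was present in 82.6% of the 23 genes, in 41.1% of all genes of the table and in 43.4% of the tested genes. The Sp1 box GGGCGG was in 82.6% of the 23, beside 38.2% of all genes and 66.6% of tested genes, and the E-box CACGTG in 21.7%, beside 8.09% and 11.4%. The sterol regulatory element TCACNCCAC was in 1 of the 23 genes, Hmgcs1, beside 1.44% of all genes and 1.37% of tested genes. Only these exact letters were searched within this window, so elements of other spelling or position were not counted. None of these motifs contains another. NF-Y and Sp1 are factors known to act with SREBPs, and a match of letters is a description and not a site. The 250 bases before the start are given here for the 2 called members with the largest change in each direction among those with 1 annotated promoter, a choice made after their values were seen. Mvd and Hmgcs1 were lower in 4T1.2 and 4T1, and Tm7sf2 and Ebp were higher. Each reads 5′ to 3′ on the strand of its gene, and capitals mark the sterol regulatory element and the NF-Y boxes, while the Sp1 boxes stay in lower case.
Mvd, chr8:122443423-122443672, minus strand: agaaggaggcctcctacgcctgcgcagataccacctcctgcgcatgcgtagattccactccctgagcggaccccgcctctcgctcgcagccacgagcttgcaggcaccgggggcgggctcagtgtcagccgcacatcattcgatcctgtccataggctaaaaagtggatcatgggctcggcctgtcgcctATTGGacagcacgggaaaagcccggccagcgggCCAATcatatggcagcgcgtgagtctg
Hmgcs1, chr13:119690101-119690350, plus strand: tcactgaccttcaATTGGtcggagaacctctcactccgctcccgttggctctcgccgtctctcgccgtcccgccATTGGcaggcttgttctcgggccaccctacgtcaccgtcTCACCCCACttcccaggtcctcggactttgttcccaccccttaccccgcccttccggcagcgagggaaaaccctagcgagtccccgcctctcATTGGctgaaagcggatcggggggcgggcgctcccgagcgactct
Tm7sf2, chr19:6067851-6068100, minus strand: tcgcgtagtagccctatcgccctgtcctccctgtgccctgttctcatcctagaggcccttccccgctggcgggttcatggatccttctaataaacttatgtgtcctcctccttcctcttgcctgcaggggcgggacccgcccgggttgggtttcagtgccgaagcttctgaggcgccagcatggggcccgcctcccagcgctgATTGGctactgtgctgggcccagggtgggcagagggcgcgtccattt
Ebp, chrX:8193513-8193762, minus strand: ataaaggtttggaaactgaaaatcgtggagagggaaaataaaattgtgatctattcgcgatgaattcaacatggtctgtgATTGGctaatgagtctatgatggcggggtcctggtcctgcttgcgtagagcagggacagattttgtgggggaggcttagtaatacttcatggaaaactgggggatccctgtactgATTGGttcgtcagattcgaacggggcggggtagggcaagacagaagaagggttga
Hmgcs1 held 1 sterol regulatory element and 3 NF-Y boxes in this window. Mvd and Ebp held 2 NF-Y boxes each and Tm7sf2 held 1. Since 82.6% of the 23 genes had this motif, these promoters cannot show whether it goes with direction.

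To compare lines of high and lower metastatic potential, the mean of 4T1.2 and 4T1 was set against the mean of 66cl4 and 67NR. Most of the cholesterol genes were lower in 4T1.2 and 4T1. Of the 29 genes, 19 fell and 5 rose at an adjusted p under 0.05, while over all tested genes 38.6% were lower and 38.1% were higher (edgeR's quasi-likelihood F-test, p-values adjusted by Benjamini-Hochberg). The median log2 fold change of the 29 was -0.76, beside -0.01 over all tested genes. The genes that fell were Acat2, Hmgcs1, Mvk, Mvd, Idi1, Fdps, Lss, Cyp51, Msmo1, Nsdhl, Hsd17b7, Sc5d, Dhcr7, Insig1, Srebf2, Scap, Stard4, Scd1 and Scd2. Those that rose were Acly, Pmvk, Tm7sf2, Ebp and Acaca. Fdft1, Sqle, Srebf1, Fasn and Elovl6 did not pass the test, and of these only Sqle was left uncalled by every alternative processing run.

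The 4 libraries of one side did not overlap the 4 of the other for 17 genes that were lower and 2 that were higher (Pmvk and Tm7sf2), and 10 genes overlapped. Over all tested genes, 55.5% did not overlap in one direction or the other. Of the 24 genes called, 22 kept their call under every alternative processing run. The exceptions were Acly, not called without 67NR replicate 2 or with 1 mean per pair of lines, and Msmo1, not called with 1 mean per pair of lines.

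**Figure D1:**
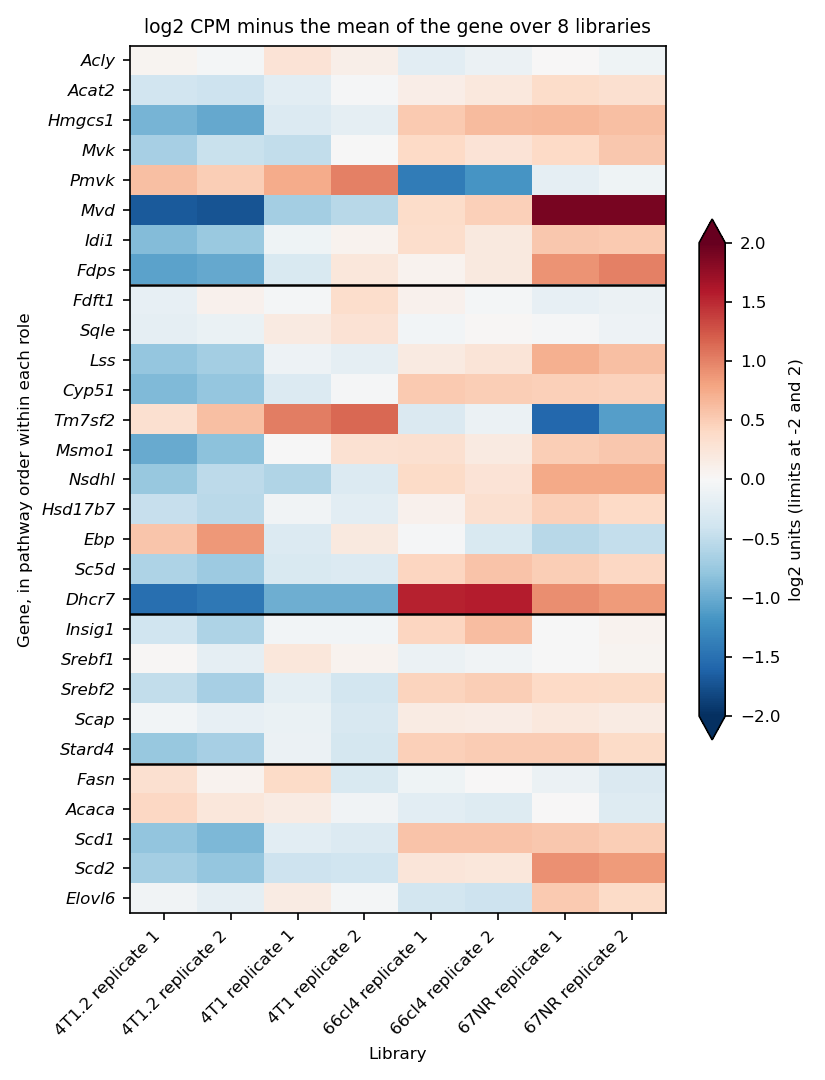
Each cell is the log2 CPM of a gene in a library minus that gene's mean over the 8 libraries, with the 4 roles separated by black lines and the colour scale ending at -2 and 2. Most rows of the mevalonate and sterol blocks are blue in 4T1.2 and red in 66cl4 and 67NR, and Pmvk and Tm7sf2 have the opposite pattern.

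As a sum, the 29 genes took up 0.371% and 0.329% of all counts in 4T1.2, while the share was 0.441% and 0.390% in 4T1. The share reached 0.558% and 0.591% for 66cl4 and to 0.721% and 0.691% for 67NR. The 4 lines did not overlap, with 4T1.2 lowest and 67NR highest. In RNA from whole cultures, fewer cells expressing a gene and less of its RNA per cell cannot be told apart. A large part of this sum was Scd2 alone. It took 0.0814% to 0.0922% of counts in 4T1.2, 0.173% to 0.179% in 66cl4 and 0.280% to 0.293% in 67NR. Per length, the summed level of the 8 acetyl-CoA and mevalonate genes was 210.45 and 206 RPKM (4T1.2), 274 and 302 (4T1), 305 and 317 (66cl4) and 401 in each 67NR library. The 11 squalene and sterol genes summed to 225 and 251 RPKM in 4T1.2 and 281 and 326 in 4T1, with 66cl4 at 419.6 and 414 and 67NR at 395 and 388. Their 66cl4 and 67NR libraries were all above those of 4T1.2 and 4T1. In this block 66cl4 was above 67NR, so 67NR was not the highest line in every block.

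The early steps turn acetyl-CoA into isoprenoid units. Of the 8 genes in this block, 6 fell and 2 rose in 4T1.2 and 4T1, with a median log2 fold change of -0.80. Hmgcs1, the synthase that makes HMG-CoA (chromosome 13, 119690351 to 119708260), had 88.9 and 83.6 CPM (4T1.2), 141 and 150.2 (4T1), 243 and 264 (66cl4) and 268 and 258 (67NR). Every 4T1.2 library was below every 4T1 library, and both lines were below 66cl4 and 67NR, which overlapped. The log2 fold change was -1.20 (SE 0.06, adjusted p = 4.90e-08), a 2.30-fold lower level. Hmgcs1 shares 9.79% of its 75-base stretches, in reverse, with the overlapping transcript Gm48342, and the library kit does not mark strand.

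Mvd makes isopentenyl diphosphate by decarboxylation (chromosome 8, 122433596 to 122443422). Its levels were 6.18 and 5.96 CPM (4T1.2), 12.4 and 13.4 (4T1), 25.5 and 27.4 (66cl4) and 73.3 and 73.5 (67NR). The lines stood in 4 separate steps, and the 67NR libraries were the highest. In 4T1.2 and 4T1 it was 4.99-fold lower than in the other lines (log2 fold change -2.32, SE 0.07, adjusted p = 9.58e-10). Mvd differed by 2.12-fold between 4T1 and 4T1.2 (log2 fold change -1.08, adjusted p = 1.06e-04) and by 2.77-fold between 67NR and 66cl4 (-1.47, adjusted p = 2.84e-06, all from edgeR).

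Pmvk, the phosphomevalonate kinase acting just before Mvd (chromosome 3, 89454541 to 89469014), moved the other way. It had 41.4 and 38.4 CPM (4T1.2), 46.1 and 55.2 (4T1), 10.3 and 12.1 (66cl4) and 24.3 and 25.9 (67NR). The 4T1 libraries were highest and those of 66cl4 lowest, and the 2 sides did not overlap. The gene was 2.67-fold higher in 4T1.2 and 4T1 (log2 fold change 1.42, SE 0.09, adjusted p = 2.09e-07). Consecutive steps of the pathway were therefore on opposite sides in these lines. Pmvk is a short gene model of 1506 bases, and with an offset for gene length, an alternative chosen after seeing the data, its call held.

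Fdps makes farnesyl diphosphate, the branch point between sterols and protein prenylation (chromosome 3, 89093588 to 89101967). It had 26.2 and 27.2 CPM (4T1.2), 44.6 and 64.5 (4T1), 57.9 and 63.1 (66cl4) and 103 and 110.3 (67NR). One 4T1 library lay above both 66cl4 libraries, so the 2 sides overlapped, while 4T1.2 was below all other libraries. The log2 fold change was -1.07 (SE 0.11, adjusted p = 8.75e-06). On chromosome 3 the median of 668 tested genes was -0.35 in the comparison of side means. Pmvk, which rose, and Elovl6, which was not called, lie there too, and the part of the chromosome was not tested. The Fdps counts are uncertain in part, since 23.5% of its 75-base stretches also occur in Gm43738.

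The other genes of this block changed less. Mvk, the mevalonate kinase, fell (-0.80 on the log2 scale, SE 0.11) and Idi1, the isomerase of the isoprenoid units, fell (-0.81, SE 0.07). Acat2, which joins acetyl-CoA units, fell (-0.51, SE 0.06), with 33.9% of its stretches shared with its copy Acat3. Acly, which supplies cytosolic acetyl-CoA from citrate, was the only one of these to rise (0.21, SE 0.06, adjusted p = 0.0140 by edgeR). Its call was lost under the alternatives named above. Against 66cl4 and 67NR, Acly was called higher in 4T1 (0.36 and 0.23) and not called in 4T1.2 (0.18 and 0.05). The adjusted p-values of Mvk, Idi1 and Acat2 were 7.50e-05, 2.46e-06 and 4.60e-05. Idi1 shares 16.7% of its stretches with Gm13502.

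**Figure D2:**
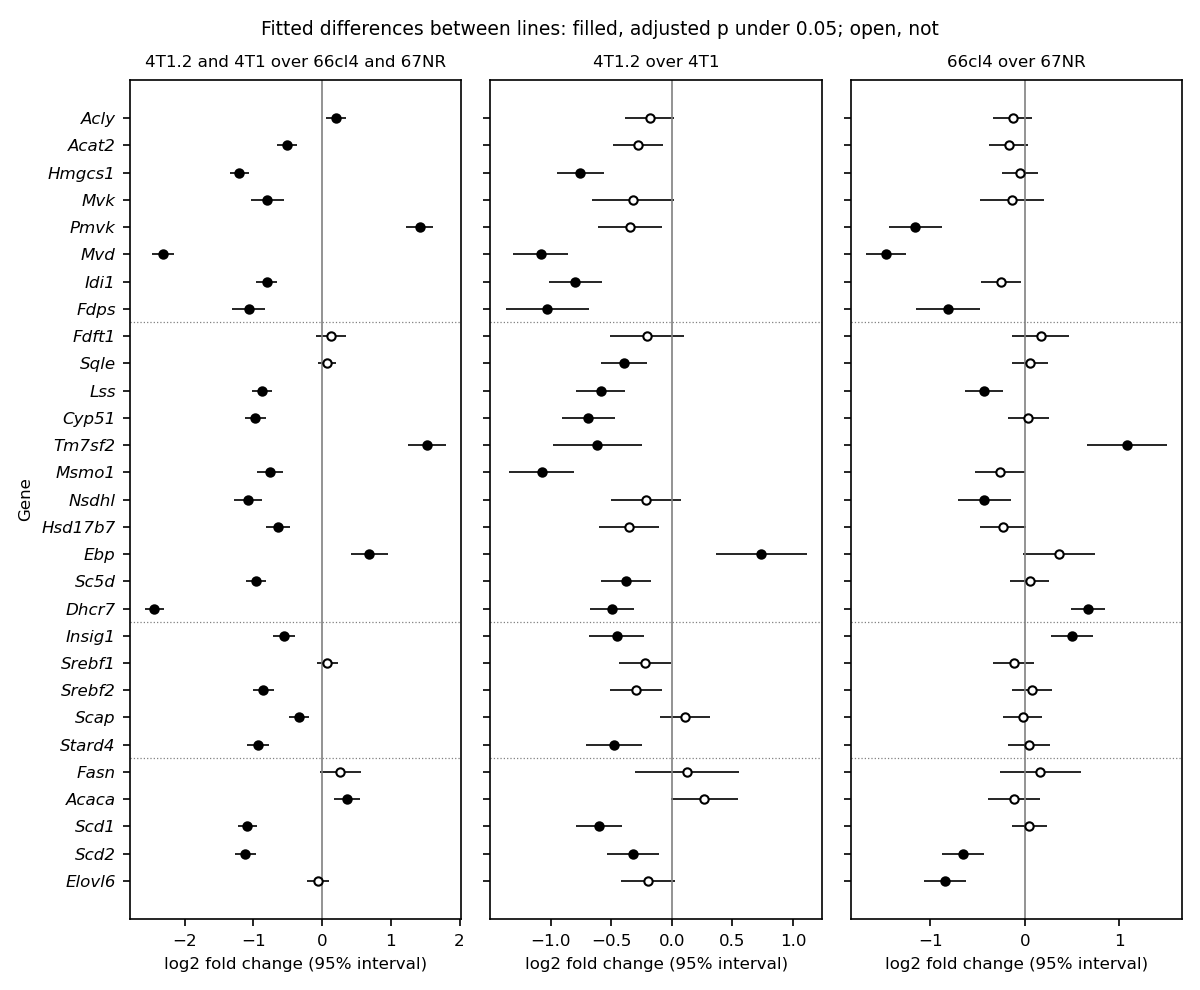
Points are fitted log2 fold changes of the 29 genes with 95% intervals, for 4T1.2 and 4T1 over 66cl4 and 67NR (left), 4T1.2 over 4T1 (middle) and 66cl4 over 67NR (right), filled where the adjusted p was under 0.05. Mvd at -2.32 and Dhcr7 at -2.44 lie farthest to the left in the left panel, and Tm7sf2 at 1.53 farthest to the right, while in the middle panel 15 of the 16 filled points are below 0.

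From squalene onwards, 7 of 11 genes fell in 4T1.2 and 4T1 and 2 rose, with a median log2 fold change of -0.76. Dhcr7, the reductase that completes cholesterol from 7-dehydrocholesterol (chromosome 7, 143823167 to 143848410), showed the largest difference of all 29 genes in the comparison of side means. It had 34.9 and 37.1 CPM (4T1.2), 50.9 and 50.5 (4T1), 291 and 295 (66cl4) and 189 and 179.7 (67NR). The 66cl4 libraries were highest, 67NR came next, and 4T1 and 4T1.2 were far below, with no overlap between any lines. The level was 5.43-fold lower in 4T1.2 and 4T1 (log2 fold change -2.44, SE 0.06, adjusted p = 1.99e-10).

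Tm7sf2 and Ebp were the sterol genes that rose. Tm7sf2, a sterol C14 reductase (chromosome 19, 6062821 to 6067850), had 7.62 and 9.27 CPM (4T1.2), 12.4 and 13.4 (4T1), 4.96 and 5.60 (66cl4) and 2.04 and 2.85 (67NR). The order of the lines was 4T1, 4T1.2, 66cl4 and 67NR from high to low, without overlap. It was 2.88-fold higher in 4T1.2 and 4T1 (log2 fold change 1.53, SE 0.13, adjusted p = 1.92e-06 by edgeR), at the lowest level per length of all 29 genes in 67NR, 1.65 RPKM. Part of its sequence, 8.83% of stretches, is shared with its neighbour Vps51. Ebp, the sterol isomerase, was highest in 4T1.2 at 83.7 ± 13.2 CPM and lowest in 67NR at 35.4 ± 1.32 CPM (mean ± SD, n = 2 each), and 4T1 and 66cl4 overlapped. Its log2 fold change was 0.69 (SE 0.12, adjusted p = 4.20e-04 by edgeR).

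Nsdhl removes the C4 methyl groups of sterols together with Msmo1. Nsdhl (chromosome X, 72918521 to 72958528) had 22.1 and 25.9 CPM (4T1.2), 24.6 and 31.1 (4T1), 48.9 and 45.2 (66cl4) and 63.6 and 63.2 (67NR). Libraries of 4T1.2 and 4T1 overlapped and all lay below 66cl4, which lay below 67NR. The log2 fold change was -1.08 (SE 0.09, adjusted p = 2.24e-06). Msmo1 (chromosome 8, 64718123 to 64733578) had 49.2 and 55.8 CPM (4T1.2), 98.3 and 123 (4T1), 124 and 112 (66cl4) and 139 and 144 (67NR). Here 4T1.2 was set apart from the other 3 lines, and one 4T1 library lay within the range of 66cl4. Its log2 fold change was -0.76 (SE 0.08, adjusted p = 1.87e-05), which did not pass with 1 mean per pair of lines (highest adjusted p over the alternatives 0.0646). In the comparison of side means, the median log2 fold change was -0.44 on the X chromosome (440 tested genes). It was -0.27 on chromosome 8 (750 tested genes), which also holds Mvd. The part of the chromosome in these values was not tested.

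Cyp51, the lanosterol demethylase, fell (-0.97, SE 0.07), as did Sc5d, which makes 7-dehydrocholesterol (-0.96, SE 0.07), and Lss, which closes the sterol rings (-0.88, SE 0.06). Hsd17b7, the 3-ketosteroid reductase, fell by less (-0.64, SE 0.08). Their adjusted p-values were 6.79e-07, 4.35e-07, 7.60e-07 and 3.93e-05 in that order. The first enzymes committed to sterols did not pass the test in the comparison of side means. Fdft1, which makes squalene, had a log2 fold change of 0.13 (95% interval -0.09 to 0.34), and Sqle, which oxidises squalene, had 0.07 (-0.06 to 0.21). These intervals leave out a change as large as that of Lss, the next enzyme. Between single lines, Sqle was called higher in 4T1 than in 66cl4 (0.24) and 67NR (0.30), and lower in 4T1.2 than in 4T1 (-0.39). In 4T1.2 it was not called against 66cl4 (-0.15) or 67NR (-0.095). Fdft1 shares 16.6% of its stretches in reverse with Ctsb. It lies on chromosome 14, where the median of 480 tested genes was 0.51 in the comparison of side means, and the part of the chromosome was not tested.

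**Figure D3:**
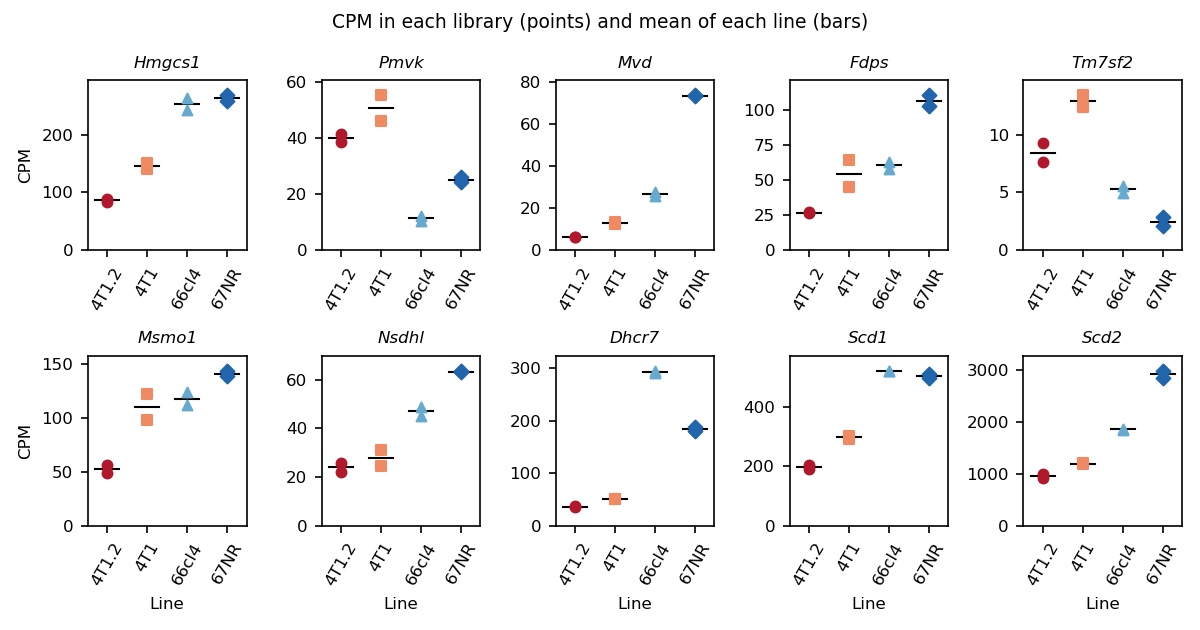
Points are the CPM of each library and bars the mean of each line, on linear axes from 0, for the 10 genes with a called log2 fold change over 1 in size. Dhcr7 spans 34.9 to 50.9 CPM over the 4T1.2 and 4T1 libraries and 179.7 to 295 over those of the other lines, whereas Pmvk and Tm7sf2 are highest in 4T1.

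Of the sensors and carriers, 4 of 5 fell and none rose (median log2 fold change -0.55). Srebf2, encoding SREBP-2, averaged 126 ± 11.0 CPM (4T1.2) and 155 ± 13.2 CPM (4T1), below the 260.1 ± 7.03 CPM of 66cl4 and the 246 ± 1.31 CPM of 67NR (mean ± SD, n = 2). The fitted log2 fold change of Srebf2 was -0.86 (SE 0.07, adjusted p = 1.48e-06 by edgeR), and the sides did not overlap. Srebf1, encoding SREBP-1, had a log2 fold change of 0.07 (95% interval -0.08 to 0.23) and did not pass the test, but was called at 0.20 with the gene length offset. Stard4, a carrier of cholesterol between membranes, fell (-0.94, SE 0.07), as did Insig1, which retains SCAP (-0.55, SE 0.07). Scap itself fell by the least among the called genes that were lower (-0.34, SE 0.06, adjusted p = 8.74e-04).

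Fatty acid synthesis was divided. Scd1 and Scd2, the desaturases that make monounsaturated fatty acids, both lie on chromosome 19 and both fell. Scd1 (chromosome 19, 44394450 to 44407709) had 202 and 189 CPM (4T1.2), 302 and 291 (4T1), 519.9 and 521 (66cl4) and 512 and 496 (67NR). The 66cl4 libraries were slightly above those of 67NR, and both lines were above 4T1, which was above 4T1.2. The log2 fold change was -1.09 (SE 0.06, adjusted p = 8.15e-08). Scd2 (chromosome 19, 44293676 to 44306864) had 987 and 923 CPM (4T1.2), 1186 and 1196 (4T1), 1858 and 1837 (66cl4) and 2973 and 2845 (67NR). The lines again formed 4 separate steps, and its log2 fold change was -1.12 (SE 0.07, adjusted p = 2.18e-07).

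In the comparison of side means, the enzymes that build the chain did not fall with the desaturases. Acaca, the acetyl-CoA carboxylase, rose (0.36, SE 0.09, adjusted p = 0.00359 by edgeR), with 26.8% of its stretches shared with Gm5182. Against 66cl4 and 67NR, Acaca was called in 4T1.2 (0.55 and 0.44) and not in 4T1 (0.29 and 0.17). Acaca, Acly, Fasn and Srebf1 lie on chromosome 11, where the median log2 fold change of 1164 tested genes was 0.30, and the part of the chromosome in these values was not tested. Fasn, the fatty acid synthase, had 721 and 606 CPM (4T1.2), 751 and 467 (4T1), 541 and 579 (66cl4) and 529 and 470.1 (67NR). The 4T1 replicates were farther apart than those of any other line and spanned the range of 66cl4 and 67NR. For Fasn the fitted log2 fold change was 0.27 (95% interval -0.04 to 0.57, adjusted p = 0.0974 by edgeR). It passed without 4T1 replicate 2 (0.42) and with the gene length offset (0.61), without 4T1 replicate 1 it was 0.07 (adjusted p = 0.431 by edgeR), and Fasn has the longest gene model of the 29, at 9938 bases. Elovl6, which extends C16 fatty acids, did not pass (-0.06, 95% interval -0.22 to 0.10) and was 0.14 and called with the offset. Between single lines, Elovl6 was called lower in 4T1.2 (-0.58) and 4T1 (-0.39) than in 67NR. Against 66cl4 it was called higher in both (0.26 and 0.46).

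Per length, Scd2 was the most abundant of the 29 genes in every line, from 175 RPKM in 4T1.2 to 533 in 67NR. In 4T1.2 the next were Acly at 72.5 and Fasn at 66.8 RPKM. In 66cl4 they were Insig1 at 109.9, Scd1 at 108 and Dhcr7 at 104 RPKM. The lowest in 4T1.2 was Mvd at 3.25 RPKM, a gene that reached 39.4 RPKM in 67NR.

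**Figure D4:**
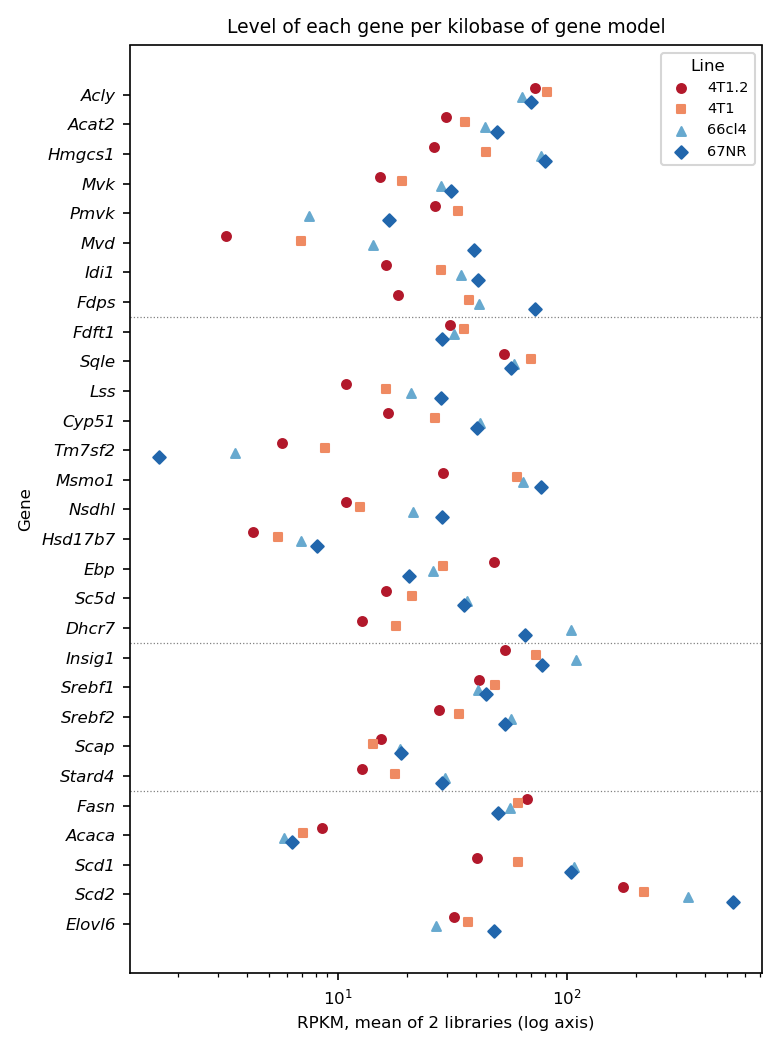
Points are the mean RPKM of 2 libraries for each gene and line on a logarithmic axis, with genes in pathway order. Scd2 lies farthest to the right in each line (from 175 to 533), and the points of Mvd, Dhcr7 and Tm7sf2 are spread the most between lines.

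Between the highly metastatic lines, 4T1.2 had less of the cholesterol genes than 4T1. Of the 29 genes, 15 were lower and 1 was higher in 4T1.2, while over all tested genes 9.92% were lower and 9.38% higher. The median log2 fold change was -0.36, beside 0 over all tested genes. Besides Mvd, the largest falls were those of Msmo1 (-1.07, SE 0.12, adjusted p = 2.80e-04) and Fdps (-1.03, SE 0.15, adjusted p = 0.00144). Idi1 (-0.79), Hmgcs1 (-0.75), Cyp51 (-0.69), Scd1 (-0.60), Lss (-0.59) and Dhcr7 (-0.49) also fell. These 9 genes kept their call under every alternative.

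The other called genes of 4T1.2 against 4T1 depended on the processing. Tm7sf2 (-0.61), Stard4 (-0.48), Insig1 (-0.45), Sqle (-0.39), Sc5d (-0.38) and Scd2 (-0.32, adjusted p = 0.0461) were each lost under at least 1 alternative. Sqle, Tm7sf2 and Sc5d were lost without either 4T1.2 library, Stard4 without replicate 1 of 4T1.2 and Insig1 without replicate 2. Tm7sf2 was also lost without 4T1 replicate 2, Sc5d in a fit of the 4T1.2 and 4T1 libraries alone, and Scd2 whenever any library was left out. Ebp was the gene that was higher in 4T1.2 (0.74, SE 0.17, adjusted p = 0.0131), and it lost its call without 4T1.2 replicate 2. Without that library 10 of the 29 genes were called, all lower, without 4T1.2 replicate 1 there were 11, and without 4T1 replicate 1 there were 21. The share of all tested genes called moved as well, from 19.3% to 10.3%, 9.85% and 22.4% in that order. With the gene length offset 23 of the 29 and 25.3% of all tested genes were called, the genes gained being Acly, Acat2, Pmvk, Hsd17b7, Srebf1, Srebf2 and Elovl6, all lower in 4T1.2 (-0.39 to -0.21). Ebp lies on the X chromosome, where the median log2 fold change of 440 tested genes was 0.27, and the part of the chromosome in the result was not tested. Nsdhl, on the same chromosome, had -0.21 and did not pass.

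Between 66cl4 and 67NR fewer genes differed. In 66cl4, 7 of the 29 were lower and 3 higher than in 67NR, while over all tested genes 22.4% were lower and 22.2% higher. The median log2 fold change was -0.11, beside 0 over all tested genes. Lower in 66cl4 were Mvd and Pmvk (-1.16, SE 0.13, adjusted p = 6.76e-05), Elovl6 (-0.85, SE 0.10), Fdps (-0.82, SE 0.15), Scd2 (-0.65, SE 0.10), Lss (-0.44) and Nsdhl (-0.43). Higher in 66cl4 were Tm7sf2 (1.08, SE 0.19, adjusted p = 0.00122), Dhcr7 (0.67, SE 0.08) and Insig1 (0.50, SE 0.10). All but Nsdhl, which was lost without 66cl4 replicate 2 or without either 67NR library, kept their call under every alternative. The gene length offset added Hsd17b7 (-0.29) and Ebp (0.39). Hmgcs1 (-0.05, 95% interval -0.24 to 0.14), Cyp51 (0.03, -0.18 to 0.25) and Scd1 (0.05, -0.14 to 0.23) did not pass.

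Several of the genes lower in 66cl4 shared a chromosome. Pmvk, Fdps and Elovl6 all lie on chromosome 3, where the median log2 fold change of 668 tested genes between 66cl4 and 67NR was -0.59. Mvd lies on chromosome 8, where the median of 750 tested genes was -0.30. These 4 genes, taken because they were called lower, had -1.16 (Pmvk), -0.82 (Fdps), -0.85 (Elovl6) and -1.47 (Mvd). The part of the chromosome in these results was not tested.

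Single lines of the 2 sides were compared in the same fit, and these comparisons share lines with each other and with the pooled one. In 4T1.2, 19 genes were lower and 5 higher than in 66cl4 (34.5% and 34.3% of all tested genes), and 20 lower and 4 higher than in 67NR (34.1% and 33.7%). In 4T1, 17 were lower and 6 higher than in 66cl4 (35.2% and 34.9%), and 19 lower and 5 higher than in 67NR (34.4% and 33.9%). The median log2 fold changes were -0.95 and -0.96 for 4T1.2 and -0.35 and -0.54 for 4T1. Mvd had -3.60 in 4T1.2 against 67NR and -1.04 in 4T1 against 66cl4, and Dhcr7 had -3.02 in 4T1.2 against 66cl4 and -1.86 in 4T1 against 67NR. Fdps and Msmo1 had -0.15 and -0.09 in 4T1 against 66cl4, beside -1.18 and -1.16 in 4T1.2 against 66cl4.

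Taking the 4 lines separately, 4T1.2 was lower than each of the other 3 lines for 13 of the 29 genes, a pattern held by 3.2% of all tested genes. These were Hmgcs1, Mvd, Idi1, Fdps, Lss, Cyp51, Msmo1, Sc5d, Dhcr7, Insig1, Stard4, Scd1 and Scd2, of which Sc5d, Insig1, Stard4 and Scd2 rest on calls against 4T1 that were lost under some alternatives. In 67NR, 6 of the 29 genes were higher than in each other line (Mvd, Fdps, Lss, Nsdhl, Scd2 and Elovl6), beside 10.7% of all tested genes. Of these, Fdps and Elovl6 lie on chromosome 3. Its median log2 fold change against 67NR was -0.59 in 66cl4, -0.62 in 4T1.2 and -0.55 in 4T1. Elovl6 itself had -0.85, -0.58 and -0.39 in that order. Mvd lies on chromosome 8, with medians of -0.30, -0.41 and -0.40. The part of the chromosome in these calls was not tested. By mean alone, 4T1.2 was the lowest line for 19 of the 29 genes and for 23.0% of all tested genes. The order 67NR, 66cl4, 4T1, 4T1.2 from high to low held for 11 genes (8.26% of all tested genes), and the order 66cl4, 67NR, 4T1, 4T1.2 for 7 (8.29%).

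Neighbouring genes of the pathways were drawn up as 3 lists, to be read against the 38.6% lower and 38.1% higher over all tested genes. Of 14 tested genes of the isoprenoid branch, which feeds ubiquinone, dolichol and protein prenylation, 4 were lower and 3 higher in 4T1.2 and 4T1 (median log2 fold change -0.07). Rabggtb, the beta subunit that prenylates Rab proteins, fell by 1.29 on the log2 scale, from 134 ± 14.4 CPM in 66cl4 and 235 ± 4.26 in 67NR to 80.7 ± 1.18 in 4T1 and 65.2 ± 2.33 in 4T1.2 (mean ± SD, n = 2). Of 19 tested genes of sterol regulation, storage and export, 9 were lower and 7 higher (median -0.14). Erlin1, which helps to degrade sterol-sensing proteins, fell by 2.27, and Lipa, the lysosomal acid lipase, fell by 1.58. Rnf139, a ubiquitin ligase of the same membrane, rose by 1.79, Stard3, a late endosomal cholesterol carrier, by 1.35, and Nceh1, a cholesteryl ester hydrolase, by 1.05. Abcg1, a cholesterol exporter, had 87 to 183 counts in 4T1.2 and 4T1 libraries and 1 to 5 in the others.

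Of 27 tested genes of other fatty acid synthesis and modification, 14 were lower and 9 higher (median -0.18), where all tested genes had 38.6% lower and 38.1% higher. Some elongase and desaturase genes were near absent on one side. Elovl4, which makes very long chains, had 0 counts in every 4T1.2 and 4T1 library and 261 to 470 in the others, at least 146-fold lower against a level of 3 counts per library. Elovl7 had 2782 to 3713 counts in 4T1.2 and 4T1 libraries against 3 to 15, and Fads3 had 3377 to 3901 against 17 to 52. Scd4 and Lpin1, a phosphatidate phosphatase, fell by 1.94 and 1.57, and Dgat2, which completes triglycerides, and Me1, which supplies NADPH, fell by 1.49 and 1.28. Acsl4, which activates long-chain fatty acids, rose by 1.87. All the named genes of these 3 lists passed the test.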

How the data were processed

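Total RNA of 4T1.2, 4T1, 66cl4 and 67NR cells was made into libraries by the authors with a TruSeq RNA v2 protocol from 100 ng of RNA. The deposited values are raw counts per Entrez gene, made by the authors with featureCounts on mm10. The study states its Rsubread version for its endothelial libraries and says that the cell line libraries were handled in a like way. The use of strand is not given in the sources used here. Every column was mapped to a sample by the labels.

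Of 27179 identifiers, 25275 (93.0%) matched a RefSeq gene table of GRCm38.p6. After filterByExpr (15269 genes), ribosomal and predicted genes and unmatched identifiers were dropped after the study's methods, leaving 13926 genes. The genes removed held 5.27% to 7.87% of a library's counts. Counts were tested with edgeR 4.0.16 (limma 3.58.1, R 4.3.3), using TMM, 1 mean per line and the quasi-likelihood F-test with 4 residual degrees of freedom. The test was also run on simulated counts with the same spread for every gene and no gene length trend. That run therefore does not cover the length trend of these libraries or spreads that differ between genes. Adjusted p-values are Benjamini-Hochberg values over all genes tested, with a threshold of 0.05, and "called" means below it. CPM uses effective library sizes, and RPKM uses the deposited gene lengths.

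Replicates of a line had Pearson correlations of 0.992 to 0.993 across genes (log2 CPM), and their counts differed beyond sampling noise. Intervals are 95% and cover the spread between replicate libraries, not the spread between lines.

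The members and lists were chosen with earlier results of these data known. Values in every library are printed for members called with an absolute log2 fold change over 1 in the pooled comparison, 4T1.2 against 4T1 or 66cl4 against 67NR, and for Fasn, added after its values were seen. From the other lists, called genes over that size were named, at most 8 per list. Shared 75-base stretches come from GENCODE transcripts. Alternatives were other size factors, filters and edgeR fits, DESeq2 1.42.0, limma-voom, fits of fewer libraries, a replicate block and an offset for gene length. Figures were drawn with matplotlib 3.10.9.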

Additional observations from a re-analysis of the deposited data

How the results depend on the processing

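Counts of called genes among the 29 stayed within 1.5 times the reported count under all alternatives but 1. That exception was 4T1.2 against 4T1 without 4T1.2 replicate 2, with 10 called in place of 16, and the test then had 1 library of 4T1.2 assumed to vary like the other lines. Leaving out each library in turn gave 23 to 25 called genes in the pooled comparison, 10 to 21 in 4T1.2 against 4T1 and 9 to 13 in 66cl4 against 67NR. It gave 22 to 25 in 4T1.2 against 66cl4 and in 4T1.2 against 67NR, 20 to 24 in 4T1 against 66cl4 and 20 to 23 in 4T1 against 67NR. The offset for gene length, chosen after seeing the data, gave 27 called genes in the pooled comparison (78.8% of all tested genes, beside 76.8%) and 23 in 4T1.2 against 4T1 (25.3%, beside 19.3%). It turned the log2 fold change of Elovl6 in the pooled comparison from -0.06 to 0.14 (adjusted p = 0.0207 by edgeR), which its construction, a shift of long against short genes, brings about. With the replicate number as a block (replicate block), 24 genes were called in the pooled comparison, 17 in 4T1.2 against 4T1 and 10 in 66cl4 against 67NR. The labels do not say that a number marks a shared batch, and the deviations of same-numbered libraries had correlations of -0.08 to 0.14 between lines, so the numbers were not taken as pairs. Over all alternatives, single genes lost a call in these 3 comparisons in 28 cases and gained one in the same direction in 41. With 2 libraries per line, differences such as those of Fasn, with a 95% interval of -0.04 to 0.57, were not resolved.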
